A study of Mus musculus with 12 samples.

Results

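The histone cluster genes were examined in mouse fibroblasts given the Hedgehog ligand SHHN. They were taken as every gene of the FPKM matrix whose older mouse symbol starts with Hist1h, Hist2h, Hist3h or Hist4h. This rule found 68 of the 24346 genes. By their symbols, 6 encode linker histone H1, 18 encode H2A, 19 encode H2B (1 of them the pseudogene Hist3h2bb-ps), 12 encode H3 and 13 encode H4. In the GENCODE M21 annotation of GRCm38, 54 lie in the Hist1 cluster on chromosome 13, 10 in the Hist2 cluster on chromosome 3 and 3 in the Hist3 cluster on chromosome 11. The only Hist4 gene, Hist4h4, is on chromosome 6.

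The 12 libraries fall into 4 groups of 3, listed here as NIH-3T3 with SHHN, NIH-3T3 with vehicle, MLg with SHHN and MLg with vehicle. NIH-3T3 is a fibroblast line from embryos of NIH/Swiss mice, and MLg (also labelled CCL206) is a fibroblast line from newborn lung of ddY mice. Cells at 85% confluence received 1 µg/ml recombinant SHHN, the signalling fragment of Sonic hedgehog, or vehicle, for 48 h in medium with 0.5% serum, so all 4 groups were in low serum. Each line is a single line, and no source says whether the 3 libraries of a group came from different cultures. The p-values therefore measure only the spread between these libraries, which may be technical. The unit is FPKM, in which fragment numbers are divided by transcript length and library size, so levels are per length. The files do not give read depth, so values carry no counting error and a listed 0 has no upper limit.

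A few facts of the whole series bear on these genes. Gli1 and Ptch1, direct targets of Hedgehog signalling, rose with SHHN in both lines, by log2 changes of 7.87 and 5.57 in NIH-3T3 and 6.83 and 6.15 in MLg. The 8 fibroblast markers summed to between 8378 and 14175 FPKM in every library, and with SHHN 5 of them fell and 1 (Thy1, by 0.61) rose in NIH-3T3, while 2 fell in MLg. That sum hides a difference between lines: Thy1 had 115 to 204 FPKM in NIH-3T3 libraries and 0 to 0.106 FPKM in MLg libraries. None of the 6 epithelial markers passed the filter on low values, and 3 of them were at 0 in all 12 libraries. Of the 5 blood markers, 4 stayed under 0.5 FPKM everywhere and 2 were at 0. Of the 4 endothelial markers, 2 passed the filter; their list summed to 6.73 to 25.3 FPKM in NIH-3T3 SHHN libraries, against 5.75 to 7.93 FPKM in NIH-3T3 controls, and to 5.78 to 6.51 FPKM in MLg SHHN libraries, against 0.101 to 0.154 FPKM in MLg controls. Cdh5 rose in both lines (log2 change 3.72 in NIH-3T3 and 3.43 in MLg). Tek rose in MLg (1.38, adjusted p = 0.00139) and was not called in NIH-3T3 (0.25, adjusted p = 0.517). The part of these markers in the results below was not tested. How RNA was selected before library construction is not given in the sources used here. The table holds 3 RNAs known to lack a poly(A) tail (Rmrp, Rpph1 and Terc). These summed to 483 FPKM in NIH-3T3 control library 2, against 1.92 to 53.2 FPKM in the other 11 libraries, so that library stands apart.

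Canonical histones package newly copied DNA, and most of their genes are switched on as cells enter S phase. H2A, H2B, H3 and H4 form the nucleosome core, and H1 binds the DNA between nucleosomes. Their mRNAs are unusual among those of animals: most end in a short stem-loop bound by the protein Slbp and carry no poly(A) tail, although some of these genes also give longer polyadenylated forms. Variant histones such as H2afz and H3f3a are encoded elsewhere by genes with ordinary polyadenylated mRNAs. A library that selects poly(A) tails therefore reads canonical histone mRNAs only in part, and the levels below cannot be taken as levels of every form of these mRNAs.

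The stem-loops are shown because they separate H4 genes from the other types and mark where a canonical histone mRNA ends. Transcripts of GENCODE M21 were searched for 16 bases that begin with GG, whose first 6 bases pair with the last 6 and whose loop opens with TTT. At least 1 transcript of 44 of the 68 members (64.7%) held such a run, as did 28 of 21857 other protein-coding genes (0.128%). In 43 of the 44 it lay after the coding sequence, in the 3′ UTR. Of the members without a match, 11 have models of coding sequence only, which leave no 3′ UTR to search, and 13 have models with more. A missing match is therefore no sign that the mRNA lacks a stem-loop. Each line gives a member, then its DNA letters 5′ to 3′ (T stands for U in the RNA), with the stem-loop in capitals.
Hist3h2a: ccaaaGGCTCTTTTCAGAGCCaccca
Hist1h2bk: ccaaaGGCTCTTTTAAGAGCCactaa
Hist2h2ac: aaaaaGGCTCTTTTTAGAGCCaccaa
Hist4h4: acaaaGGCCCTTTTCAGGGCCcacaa
Hist2h4: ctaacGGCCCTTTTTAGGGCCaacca
Hist1h4b: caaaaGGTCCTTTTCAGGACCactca
These stem-loops lie at chr11:58955172-58955187 (plus strand), chr13:22036300-22036315 (plus), chr3:96220418-96220433 (minus), chr6:136803998-136804013 (minus), chr3:96262939-96262954 (minus) and chr13:23757366-23757381 (plus) of GRCm38. The first form was the commonest, found in 26 members (3 H1, 10 H2A, 8 H2B and 5 H3 genes). The second was found in 6 members, and the third in Hist2h2ac alone. All 11 H4 genes with a match had one of the last 3 forms, held by 7, 2 and 2 genes, and no gene of another type had any of these 3.

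Histone cluster genes were read at low levels in every group. Of the 68 members, 57 were above 0 in at least 1 library, 31 reached 1 FPKM somewhere and 3 reached 5 FPKM. Only 6 were above 0 in all 12 libraries, and 11 were listed at 0 in all 12. By contrast, none of 76 ribosomal protein genes was at 0 in any library. The median member had a mean of 0.216 FPKM over the 12 libraries. The 11 variant histone genes together gave 1322 to 2157 FPKM in each library, while the 68 cluster genes gave 37.0 to 109.7 FPKM.

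More members were read above 0 with SHHN than without it, in both lines. NIH-3T3 SHHN libraries 1, 2 and 3 had 34, 32 and 44 members above 0 FPKM, against 16, 21 and 18 in NIH-3T3 controls. MLg SHHN libraries had 42, 39 and 45, against 30, 28 and 33 in MLg controls. The groups did not overlap in either line. As shares, a mean of 53.9% and 27.0% of members were above 0 in NIH-3T3 SHHN and control libraries, and 61.8% and 44.6% in MLg SHHN and control libraries. Over all 24346 genes the shares were 58.9% and 56.8% in NIH-3T3 SHHN and control libraries, and 60.2% and 59% in MLg SHHN and control libraries. Those groups did not overlap either, and how much of the members' difference goes with read depth was not tested. At a stricter level of 0.5 FPKM the means were 21 and 11 members in NIH-3T3 SHHN and control libraries, and 26.3 and 12.3 in MLg SHHN and control libraries. The shares of all genes at that level are not given here, so these means have no background beside them.

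In the summed level, 1 gene held much of the total. All members summed to 92.3 ± 27.8 FPKM in NIH-3T3 SHHN libraries and 54.4 ± 18.0 FPKM in NIH-3T3 controls (SD, n = 3 each), and to 67.8 ± 9.47 FPKM in MLg SHHN libraries and 65.6 ± 6.07 FPKM in MLg controls. Hist3h2a alone made up on average 47.7% and 68% of the sum in NIH-3T3 SHHN and control libraries, and 39.2% and 55.0% in MLg SHHN and control libraries. Without the highest member of each type (Hist1h1c, Hist3h2a, Hist1h2bc, Hist1h3c and Hist1h4i), the other 63 summed to 29.0 ± 4.65 FPKM in MLg SHHN libraries and 13.9 ± 0.385 FPKM in MLg controls, and the 2 groups did not overlap. In NIH-3T3 the 63 gave 22.0 ± 6.01 FPKM with SHHN and 11.5 ± 8.15 FPKM in controls. There the groups overlapped, since control library 2 gave 20.9 FPKM and the other controls 6.55 and 6.95 FPKM. Without it, the log2 ratio of the means for the 63 members (SHHN over control) was 1.71, against 0.94 with all libraries. This is the library with high Rmrp; the part of that difference in these sums was not tested.

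**Figure D1:**
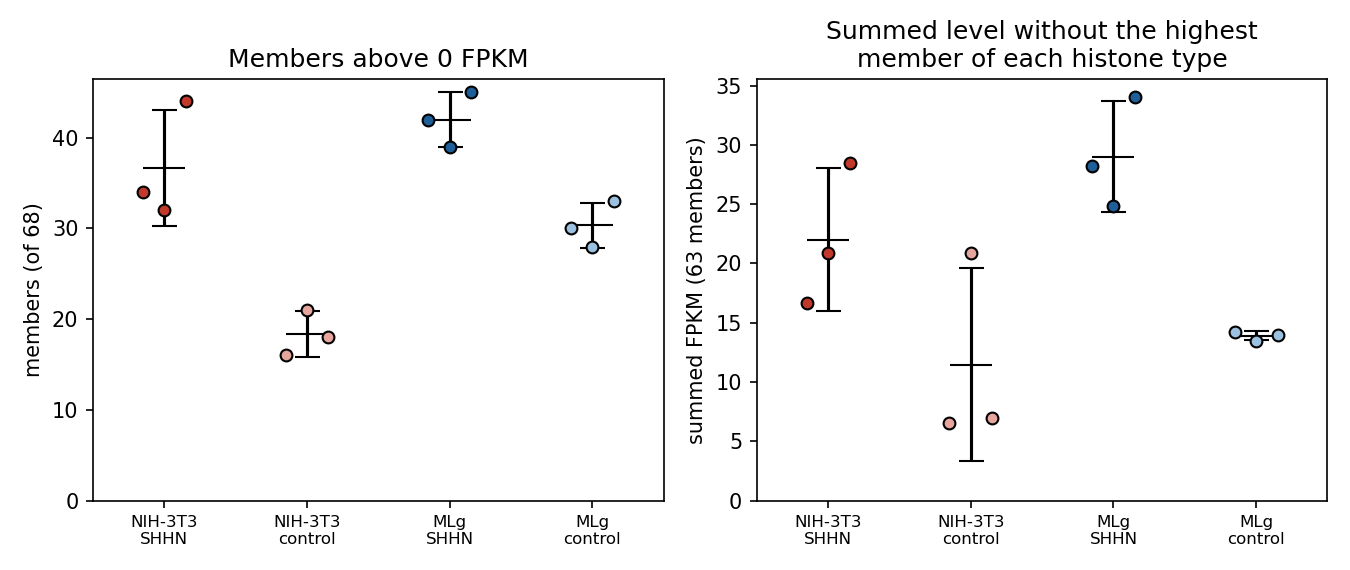
Members above 0 FPKM (left) and summed FPKM of the 63 members other than the highest of each histone type (right), per library; points are replicates 1 to 3 from left to right in each group, with the mean (horizontal line) and SD (bars). More members were above 0 in SHHN libraries than in controls of the same line (32 to 44 against 16 to 21 in NIH-3T3, 39 to 45 against 28 to 33 in MLg), and NIH-3T3 control replicate 2 reached the summed level of the NIH-3T3 SHHN libraries.

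To ask which single genes answered SHHN, values were compared as log2(FPKM + 0.5) with limma over the 12379 genes reaching 0.5 FPKM in 3 or more libraries, with Benjamini-Hochberg adjustment and a threshold of 0.05. Only 30 members passed that filter (2 H1, 8 H2A, 7 H2B, 4 H3 and 9 H4), and the 38 others were not tested. In NIH-3T3, SHHN raised 10 of the 30 tested members and lowered none, where 16.6% of all tested genes rose and 14.8% fell (31.4% in all). In MLg, SHHN raised 9 and lowered none, where 12.8% rose and 10% fell (22.8% in all). That fit takes the libraries as unpaired. With replicate number as a block, Hist1h2bc and Hist3h2a were called lower in MLg (limma adjusted p = 0.00318 and 0.0123). Without MLg SHHN library 3, 4 members rose there. At an unadjusted p under 0.05, 12 members differed in NIH-3T3 and 15 in MLg. The median log2 change of the tested members was 0.60 in NIH-3T3 and 0.55 in MLg, beside -0.01 and -0.0026 for all tested genes.

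These counts have a limit that comes from the filter. Of the 30 tested members, 15 passed through SHHN libraries alone and none through control libraries alone, so a member that was high with SHHN was likelier to be tested. They include Hist1h1e, Hist1h2ae, Hist1h2af, Hist1h2ag, Hist1h2an, Hist1h2bk, Hist1h3a, Hist1h3h and Hist2h4 among the called ones. The counts therefore describe the members that passed and say nothing of the 68. With no filter, where the 57 members above 0 in any library were tested, 10 rose in NIH-3T3 and 8 in MLg. The share of all genes called in that fit is not given here, so these counts have no background beside them. Genes listed at 0 in a whole group also carry no fold change free of the pseudocount. Without those, the median log2 change was 0.57 over 24 members in NIH-3T3 and 0.45 over 28 in MLg, beside -0.02 and -0.0039 for all genes chosen in the same way. Over all 68 members, the 3 SHHN libraries lay wholly above the 3 controls for 16 members in NIH-3T3 and wholly below for none. The like shares over all genes of the matrix are not given here, so these counts have no background beside them. Among the 30 tested members the SHHN libraries lay above for 12 and below for none, where 21.6% and 18.8% of tested genes did so. In MLg they lay above for 10 of the 68 members and below for 1, again with no background beside these counts. Among the 30 tested members the MLg SHHN libraries lay above for 9 and below for 1, where 21.4% and 20% of tested genes did.

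Some members were called in both lines. Hist1h2ae, Hist1h2af, Hist1h2ag, Hist1h2an and Hist1h3h rose in both, which is 50% of the NIH-3T3 calls and 55.6% of the MLg calls. The like shares over all genes called higher are not given here. All 5 members passed the filter through SHHN libraries alone, so this overlap is a description and not evidence that the lines acted alike. With no filter, Hist1h2ag was not called in either line (adjusted p = 0.0679 in NIH-3T3 and 0.0752 in MLg), and the other 4 were called in both. The difference between the 2 SHHN effects was tested directly: 4 members had a higher effect in NIH-3T3 (Hist1h1c, Hist1h2ai, Hist1h2bc and Hist4h4) and 1 a lower effect (Hist1h2bk), where 7.48% and 5.95% of tested genes did (13.4% in all). Without NIH-3T3 control library 3, 2 had a higher effect, and without any 1 of the MLg SHHN libraries none had a lower one, since Hist1h2bk then missed the filter. Same-numbered replicates of MLg SHHN and MLg control deviated together weakly (correlations of 0.13 to 0.24), which does not settle whether they were paired. Results of a fit blocked on replicate number are therefore given beside the unpaired fit. They are given for MLg, and for the difference between lines, wherever the call of a named member changes. With that block 8 members rose and 2 fell in MLg, and the share of all genes called with it is not given here. When 1 library was left out, the count that fell lay between 0 and 1 in NIH-3T3 (1 without NIH-3T3 SHHN library 3 or control library 1). In MLg it was 2 without NIH-3T3 control library 1, and 1 without NIH-3T3 SHHN library 1 or 2, NIH-3T3 control library 2 or MLg SHHN library 3.

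**Figure D2:**
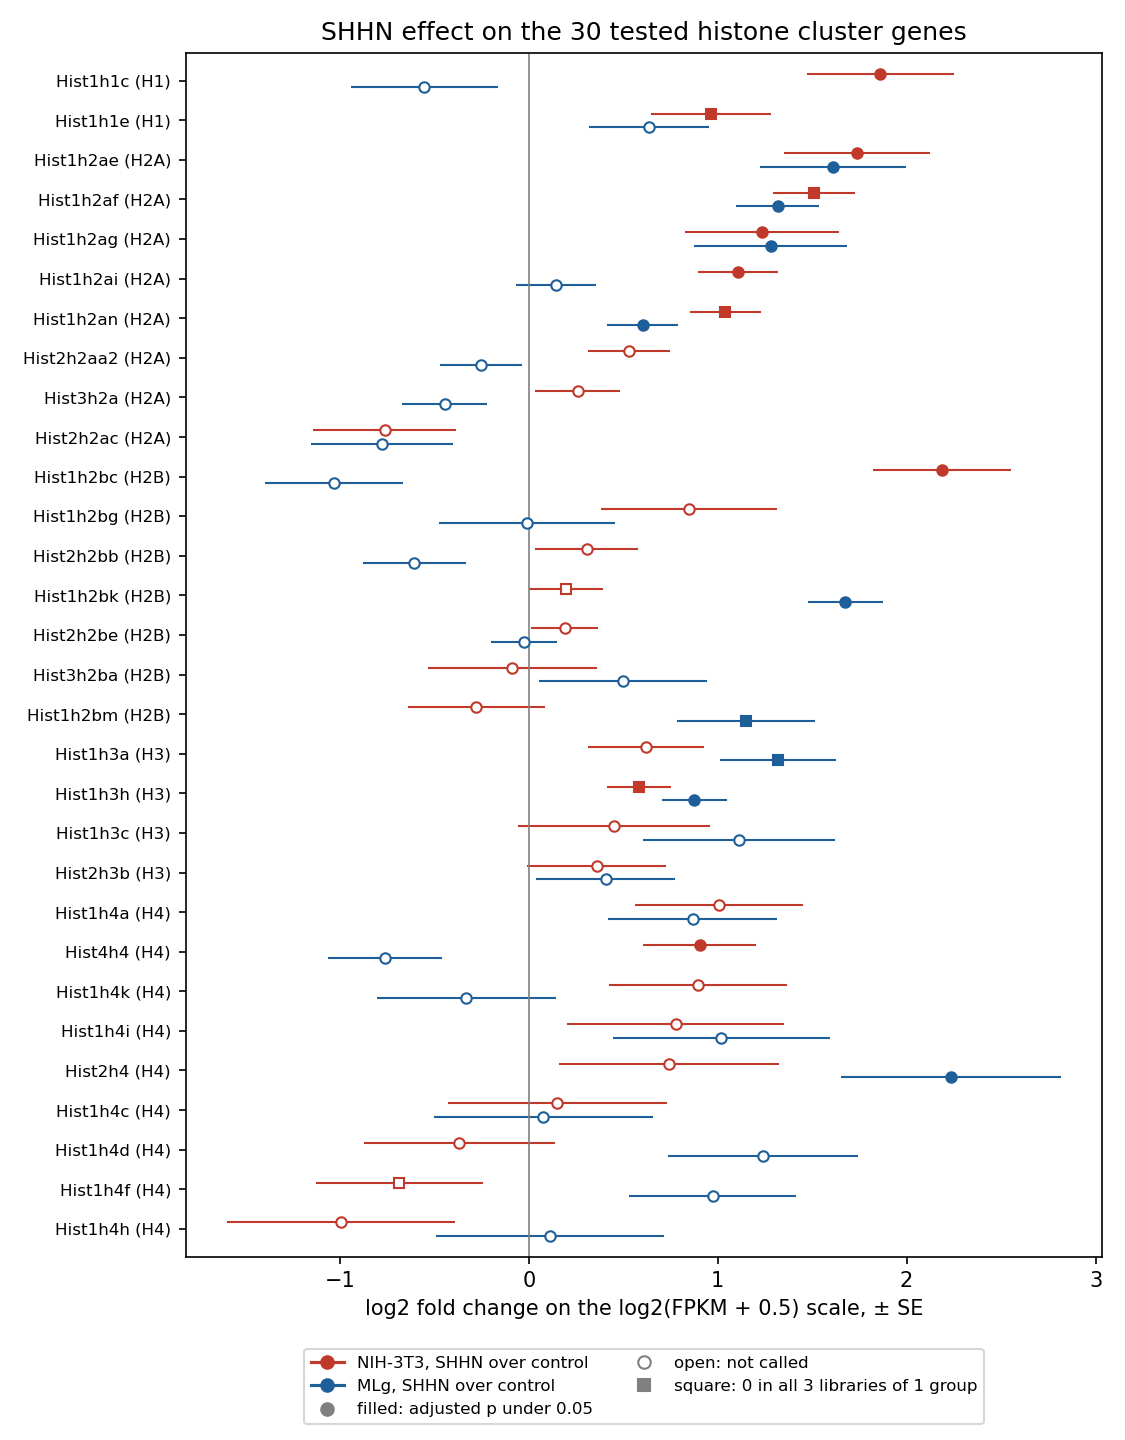
Log2 fold change (SHHN over control, on the log2(FPKM + 0.5) scale) with its SE for the 30 tested members, grouped by histone type, in NIH-3T3 (red, upper of each pair) and MLg (blue, lower). Filled symbols passed an adjusted p of 0.05. Squares mark genes at 0 in all 3 libraries of 1 group, whose position depends on the pseudocount. The filled symbols all lie above 0. Several members, among them Hist1h1c, Hist1h2bc, Hist3h2a and Hist4h4, have opposite signs in the 2 lines.

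Linker histone genes were dominated by Hist1h1c. Its level was 5.10, 15.3 and 16.6 FPKM in NIH-3T3 SHHN libraries, against 2.07, 3.91 and 2.29 FPKM in NIH-3T3 controls. In MLg it was 3.55, 7.42 and 3.22 FPKM with SHHN, against 5.54, 7.85 and 6.98 FPKM in controls. The NIH-3T3 groups did not overlap, while the MLg groups did. SHHN raised it in NIH-3T3 (log2 change 1.86, SE 0.39, limma adjusted p = 0.00236), and in MLg the change was -0.55 (SE 0.39, adjusted p = 0.364). The effects differed between lines by 2.41 (SE 0.55, adjusted p = 0.0108). The annotated transcript of Hist1h1c, chr13:23738808-23740367 on the plus strand, is a single exon that runs 840 bases past its stem-loop.

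The other H1 genes had low values. Hist1h1e was listed at 0 in all 3 NIH-3T3 controls and had 0.087, 0.582 and 0.964 FPKM in NIH-3T3 SHHN libraries (adjusted p = 0.0328). Its MLg levels were 0.252, 0.774 and 1.09 FPKM with SHHN, against 0.164, 0.435 and 0.155 FPKM in controls (adjusted p = 0.182). The NIH-3T3 call was lost without SHHN library 2 or 3 (adjusted p = 0.101 and 0.139) and without control library 1, 2 or 3 (adjusted p = 0.0661, 0.0539 and 0.0753), and with no filter (adjusted p = 0.0577). Hist1h1e overlaps Hist1h2be on the same strand in the annotation, and 32% of its 50-base windows also occur in another member, so reads could be assigned to either. Hist1h1a, Hist1h1b, Hist1h1d and the testis gene Hist1h1t were not tested and never exceeded 0.682 FPKM.

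Among H2A genes, Hist3h2a was the highest of all members, at a mean of 35.6 FPKM over the 12 libraries. It had 31.1, 54.1 and 45.2 FPKM in NIH-3T3 SHHN libraries, against 26.0, 41.6 and 41.0 FPKM in NIH-3T3 controls. Those of MLg had 20.4, 32.1 and 27.5 FPKM, against 31.5, 39.9 and 36.8 FPKM in MLg controls. The groups overlapped in both lines, and neither log2 change passed the test (0.26, SE 0.23, adjusted p = 0.428 in NIH-3T3; -0.45, SE 0.23, adjusted p = 0.192 in MLg). With the replicate block, Hist3h2a fell in MLg (adjusted p = 0.0123) and the effects differed between lines by 0.70 (adjusted p = 0.0144). Only 2% of its 50-base windows are shared with another member. Its gene, chr11:58954685-58956830 on the plus strand, overlaps Trim17 on the same strand, which was at 0.118 to 0.448 FPKM. How reads were divided between them was not tested.

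The H2A genes of the Hist1 cluster were far lower, and 4 of them, all tested only because SHHN libraries passed the filter, were called higher in both lines. Hist1h2ae had 0.742, 1.20 and 3.37 FPKM in NIH-3T3 SHHN libraries, against 0.381, 0 and 0 FPKM in controls (log2 change 1.74, SE 0.39, adjusted p = 0.00358). MLg cells had 2.83, 1.43 and 3.15 FPKM with SHHN, against 0.541, 0.652 and 0.184 FPKM in controls (1.61, SE 0.39, adjusted p = 0.00763). SHHN and control libraries did not overlap in either line. Hist1h2af was listed at 0 in every NIH-3T3 control and at 1.20, 0.923 and 0.687 FPKM in NIH-3T3 SHHN libraries (adjusted p = 1.25e-04). MLg SHHN libraries had 0.832, 0.785 and 1.68 FPKM of it, against 0.199, 0 and 0.189 FPKM in MLg controls (log2 change 1.32, SE 0.22, adjusted p = 5.06e-04). Again the groups were apart in both lines.

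Hist1h2an, the third, was listed at 0 in all NIH-3T3 controls and had 0.647, 0.404 and 0.548 FPKM with SHHN (adjusted p = 8.33e-04). In MLg it had 0.442, 0.291 and 0.685 FPKM with SHHN, against 0.216, 0 and 0.205 FPKM in controls (log2 change 0.60, SE 0.19, adjusted p = 0.0341). The MLg call was lost without SHHN library 1 (adjusted p = 0.0805) and without control library 2 (adjusted p = 0.154). Without NIH-3T3 SHHN library 1 or 3 or MLg SHHN library 3 this gene missed the filter and was not tested in either line. Hist1h2ag, the fourth, was called with log2 changes of 1.24 in NIH-3T3 (adjusted p = 0.0334) and 1.28 in MLg (adjusted p = 0.0365). Its NIH-3T3 call was lost without SHHN library 1 or 2 or control library 1 or 2 (adjusted p = 0.134, 0.0935, 0.0832 and 0.0678). The MLg call was lost without SHHN library 2 or 3 or control library 1 or 2 (adjusted p = 0.0663, 0.165, 0.117 and 0.169). Of the 50-base windows of Hist1h2ae, Hist1h2af, Hist1h2ag and Hist1h2an, 43.2%, 79.7%, 78.9% and 85.8% also occur in another member, so which of these copies gave the reads is uncertain.

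Hist1h2ai was called with SHHN in NIH-3T3 and not in MLg. It had 1.07, 1.02 and 0.726 FPKM in NIH-3T3 SHHN libraries, against 0.129, 0.428 and 0 FPKM in NIH-3T3 controls. In MLg it was at 1.78, 1.78 and 2.08 FPKM with SHHN, against 1.29, 1.85 and 1.86 FPKM in controls. The log2 change was 1.11 in NIH-3T3 (SE 0.21, adjusted p = 0.0012) and 0.15 in MLg (SE 0.21, adjusted p = 0.692). The difference of 0.96 (SE 0.30) was just past the threshold (adjusted p = 0.0486) and was lost when 1 of 9 libraries was left out (all except those without NIH-3T3 SHHN 3, NIH-3T3 control 2 or MLg control 1), where the adjusted p of the lost calls lay between 0.0768 and 0.113. Of its windows, 84.6% occur in another member. It also missed the threshold with pseudocounts of 0.1 and 1, with no filter and with quantile normalization (adjusted p = 0.057, 0.0685, 0.0733 and 0.0929).

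The 2 tested H2A genes of the Hist2 cluster were not called in either SHHN comparison. Hist2h2ac had 0.622, 0.582 and 2 FPKM in NIH-3T3 SHHN libraries, against 1.18, 3.52 and 1.69 FPKM in NIH-3T3 controls (log2 change -0.76, SE 0.38, adjusted p = 0.145). MLg cells with SHHN had 0.871, 1.06 and 0.654 FPKM, against 2.89, 1.96 and 0.996 FPKM in MLg controls (-0.78, SE 0.38, adjusted p = 0.17). Both changes are below 0, and the groups overlapped in both lines. Without NIH-3T3 SHHN library 3, the NIH-3T3 change was -1.16 and was called (adjusted p = 0.031). Hist2h2aa2, whose every window also occurs in another member, had 0.128, 0.231 and 0.318 FPKM with SHHN in NIH-3T3, against at most 2.02e-05 FPKM in controls (adjusted p = 0.0807). With a pseudocount of 0.1 that change was 1.66 and was called (adjusted p = 0.00681), as was the difference between lines (2.17, adjusted p = 0.0263). MLg levels were 0.18, 0.834 and 0.277 FPKM with SHHN, against 0.615, 0.47 and 0.607 FPKM in controls (adjusted p = 0.464).

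**Figure D3:**
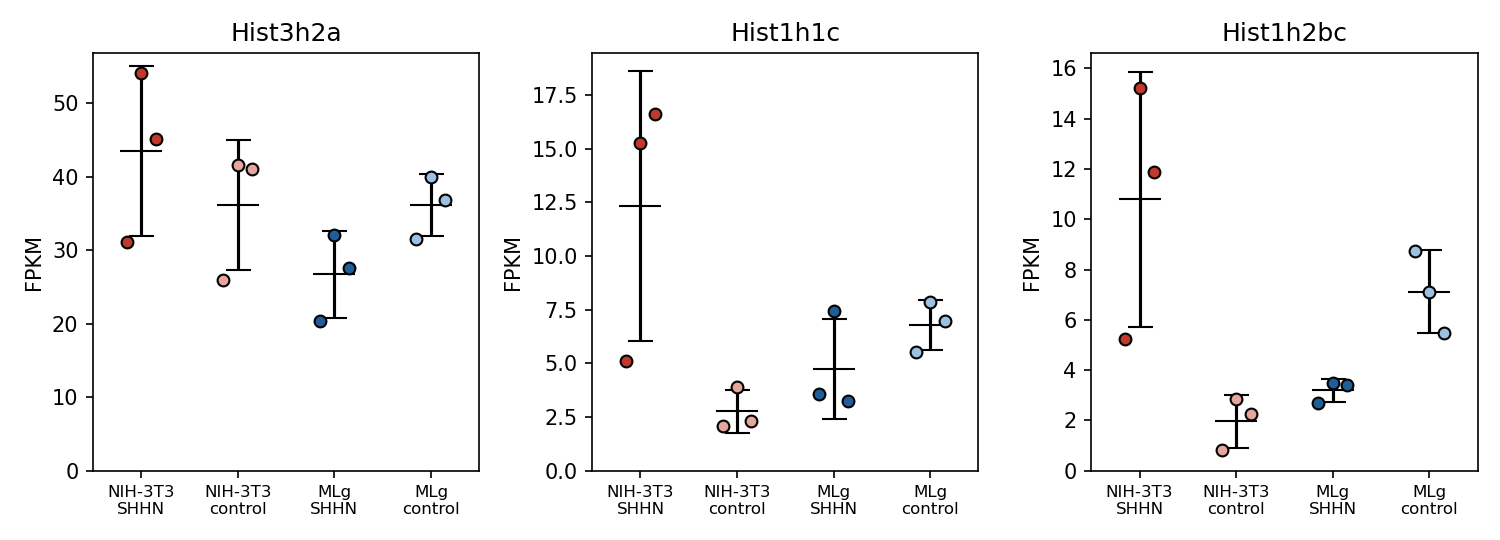
FPKM of the 3 members that reached 5 FPKM, per library; points are replicates 1 to 3 from left to right, with the mean (horizontal line) and SD (bars), on linear axes from 0. Hist3h2a overlaps between SHHN and control in both lines, while Hist1h1c and Hist1h2bc are higher with SHHN in every NIH-3T3 library and Hist1h2bc is lower with SHHN in every MLg library.

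For H2B the leading gene was Hist1h2bc, whose changes had opposite signs in the 2 lines. It had 5.25, 15.2 and 11.9 FPKM in NIH-3T3 SHHN libraries, against 0.801, 2.83 and 2.24 FPKM in NIH-3T3 controls. In MLg it had 2.68, 3.47 and 3.41 FPKM with SHHN, against 8.76, 7.12 and 5.47 FPKM in controls. Neither pair of groups overlapped. SHHN raised it in NIH-3T3 (log2 change 2.19, SE 0.37, adjusted p = 4.33e-04). The MLg change of -1.03 (SE 0.37) missed the threshold (adjusted p = 0.0593) but passed it with the replicate block (adjusted p = 0.00318), and with quantile normalization, median-ratio scaling or 6 libraries per fit (adjusted p = 0.0388, 0.0452 and 0.00112). It also passed without NIH-3T3 SHHN library 1 or 2 or NIH-3T3 control library 1 or 2, which enter that fit only through the shared spread (adjusted p = 0.0226, 0.049, 0.0245 and 0.0372). The effects differed by 3.22 (SE 0.52, adjusted p = 0.00113). The annotated Hist1h2bc gene, chr13:23684199-23692908 on the plus strand, has a spliced transcript of 2 exons and 1156 bases in which no stem-loop was found.

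Hist1h2bk showed the reverse contrast between lines. It had 0.253, 0 and 0 FPKM in NIH-3T3 SHHN libraries and was listed at 0 in all NIH-3T3 controls. MLg cells had 1.08, 1.45 and 1.40 FPKM with SHHN, against 0, 0 and 0.222 FPKM in controls. The 3 MLg SHHN libraries were the only ones at 0.5 FPKM or more, so the gene was tested only through the group in which it was high. Its log2 change was 1.67 in MLg (SE 0.20, adjusted p = 2.70e-05), and the NIH-3T3 effect was lower by 1.48 (SE 0.28, adjusted p = 0.00352). With no filter these adjusted p were 7.16e-05 and 0.00425. Without any 1 of the 3 MLg SHHN libraries it no longer passed the filter and was not tested. Of its windows, 74.2% occur in another member. Hist1h2bm was listed at 0 in all MLg controls and called higher in MLg with SHHN (adjusted p = 0.0361), but not with the replicate block (adjusted p = 0.051), with no filter (adjusted p = 0.069), with quantile normalization (adjusted p = 0.0754) or without MLg control library 1, 2 or 3 (adjusted p = 0.0843, 0.0895 and 0.0758). It missed the filter without NIH-3T3 control library 2 or MLg SHHN library 2 or 3.

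The H2B genes Hist2h2be and Hist2h2bb, outside the Hist1 cluster, were not called with SHHN in either line. Hist2h2be, which encodes a variant H2B known from mouse olfactory neurons, had 1.35, 1.36 and 1.68 FPKM in NIH-3T3 SHHN libraries, against 1.26, 1.08 and 1.33 FPKM in NIH-3T3 controls (log2 change 0.19, SE 0.18, adjusted p = 0.456). Levels in MLg SHHN libraries were 0.731, 0.432 and 0.653 FPKM, against 0.56, 0.915 and 0.431 FPKM in MLg controls (-0.03, SE 0.18, adjusted p = 0.945). Hist2h2bb had 1.96, 0.824 and 1.31 FPKM with SHHN in NIH-3T3, against 1.35, 1.03 and 0.599 FPKM in controls (0.31, SE 0.27, adjusted p = 0.435). For MLg they were 0.782, 1.21 and 0.393 FPKM with SHHN, against 1.68, 1.19 and 1.38 FPKM in controls (-0.61, SE 0.27, adjusted p = 0.137). No 50-base window of either gene is shared with another member. Hist1h2bg had 0.28, 1.59 and 0.683 FPKM with SHHN in NIH-3T3, against 0, 0.822 and 0 FPKM in controls (0.85, SE 0.47, adjusted p = 0.191), and passed without NIH-3T3 control library 2 (1.32, adjusted p = 0.0354). In MLg its values were 0.232, 0 and 0.751 FPKM with SHHN, against 0.273, 0 and 0.712 FPKM in controls (-0.01, SE 0.47, adjusted p = 0.992). With the replicate block its effects differed between lines by 0.86 (adjusted p = 0.0491).

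H3 genes had their highest summed level in MLg cells given SHHN. The 12 members summed to 6.28 ± 2.10 FPKM in MLg SHHN libraries, 1.83 ± 0.225 FPKM in MLg controls, 2 ± 1.04 FPKM in NIH-3T3 SHHN libraries and 0.499 ± 0.448 FPKM in NIH-3T3 controls (SD, n = 3 each). Within each line the SHHN and control sums did not overlap. Hist1h3h had 1.04, 0.996 and 1.38 FPKM in MLg SHHN libraries, against 0.408, 0.237 and 0.546 FPKM in MLg controls (log2 change 0.88, SE 0.17, adjusted p = 0.00182). In NIH-3T3 it had 0.21, 0.381 and 0.17 FPKM with SHHN and was listed at 0 in every control (adjusted p = 0.0189, and 0.0952 without SHHN library 2). Of its windows, 93.9% occur in another member.

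Hist1h3a was listed at 0 in all 3 MLg controls and had 0.744, 0.248 and 1.59 FPKM in MLg SHHN libraries (adjusted p = 0.0061). In NIH-3T3 it had 0.624, 0.567 and 0.173 FPKM with SHHN, against 0.135, 0.199 and 0 FPKM in controls (log2 change 0.62, SE 0.31, adjusted p = 0.144). Hist1h3c, the highest H3 gene, had 0, 0 and 1.25 FPKM in NIH-3T3 SHHN libraries, against 0, 0 and 0.182 FPKM in NIH-3T3 controls. MLg SHHN libraries had 1.09, 1.31 and 3.91 FPKM, against 0.214, 1.5 and 0.381 FPKM in MLg controls. Its changes of 0.45 with NIH-3T3 cells and 1.11 with MLg cells (SE 0.51 for both) did not pass (adjusted p = 0.545 and 0.143). Hist2h3b had 0, 0.16 and 0.573 FPKM in NIH-3T3 SHHN libraries, against 0, 0.171 and 0 FPKM in NIH-3T3 controls, and 0.123, 0.83 and 0.327 FPKM in MLg SHHN libraries, against 0.679, 0 and 0 FPKM in MLg controls. The groups overlapped in both lines, and its changes of 0.36 and 0.41 (SE 0.37 each) did not pass (adjusted p = 0.501 and 0.494).

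H4 sums varied widely between replicates. Their sum was 4.60, 11.0 and 14 FPKM in NIH-3T3 SHHN libraries, against 2.67, 15 and 2.89 FPKM in NIH-3T3 controls. MLg SHHN libraries gave 10.7, 5.90 and 14.3 FPKM, against 1.86, 5.32 and 4.04 FPKM in MLg controls. The MLg groups were apart, whereas NIH-3T3 control library 2 exceeded every NIH-3T3 SHHN library. That library, with 474 FPKM of the RNase MRP RNA Rmrp, had 3.41 FPKM of Hist1h4h, 1.85 of Hist1h4c, 1.58 of Hist1h4f and 1.5 of Hist1h4d. These genes were singled out after their values were seen. In the other 2 NIH-3T3 controls these 4 genes lay between 0 and 0.947 FPKM. The part of Rmrp, or of whatever it marks, in the H4 values was not tested.

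**Figure D4:**
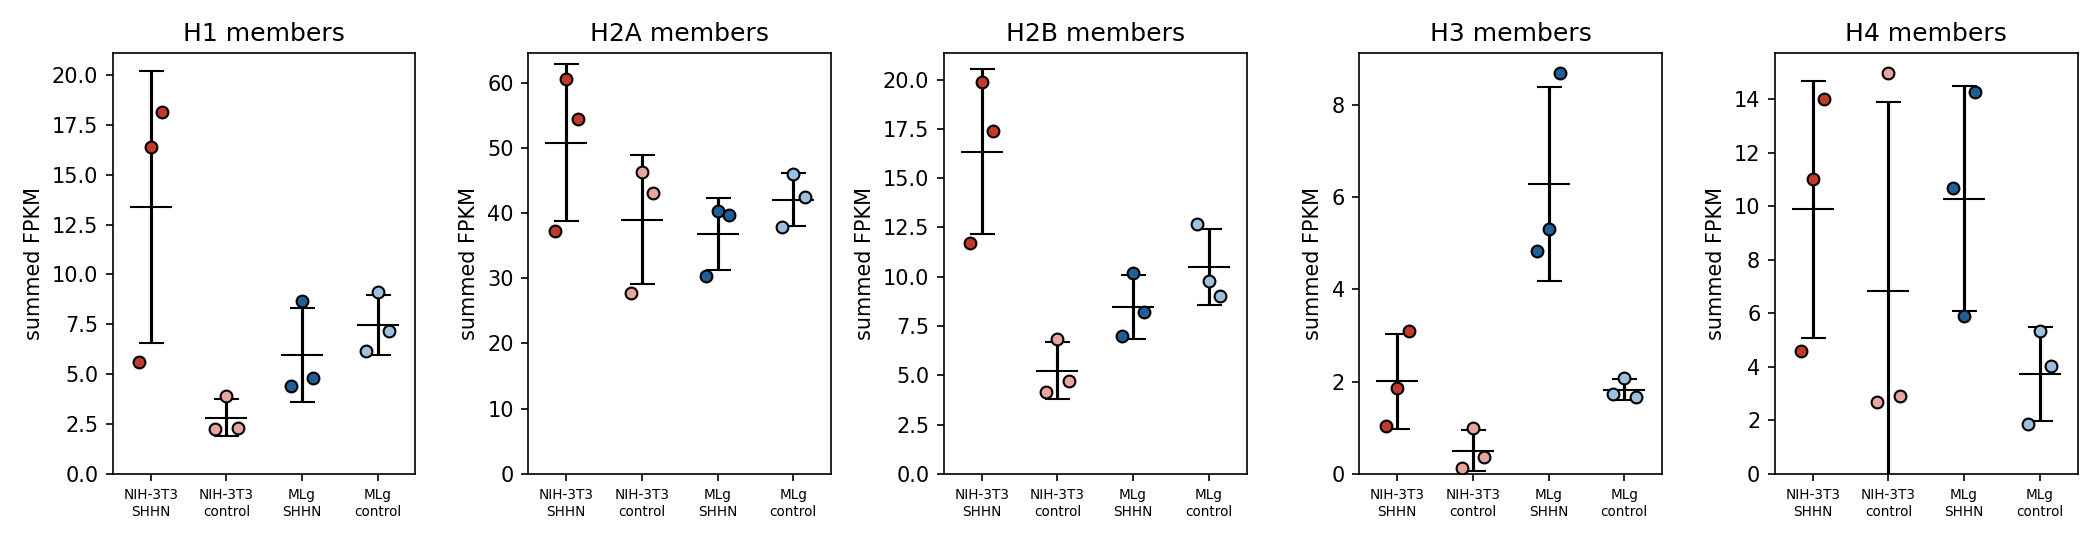
Summed FPKM of the members of each histone type per library; points are replicates 1 to 3 from left to right, with the mean (horizontal line) and SD (bars, cut at 0 for H4 in NIH-3T3 controls). H3 sums are apart between SHHN and control in both lines, and the H4 sum of NIH-3T3 control replicate 2 (15 FPKM) lies above those of the NIH-3T3 SHHN libraries.

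Among single H4 genes, Hist2h4 had the largest MLg change of the tested members. It had 2.95, 1.08 and 3.97 FPKM in MLg SHHN libraries, against 0.441, 0 and 0 FPKM in MLg controls (log2 change 2.23, SE 0.58, adjusted p = 0.0129). The groups were apart, and the call was lost without MLg SHHN library 3 (adjusted p = 0.066) or MLg control library 2 (adjusted p = 0.0521). In NIH-3T3 it had 0.44, 3.75 and 3.22 FPKM with SHHN, against 0.334, 2.52 and 0.762 FPKM in controls (0.74, SE 0.58, adjusted p = 0.368). Its annotated transcript runs 1257 bases past the stem-loop, and 1.01% of its windows are shared with another member. The 2 SHHN effects were not shown to differ (-1.49, SE 0.82, adjusted p = 0.262).

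Hist4h4 was low but differed in effect between lines. It had 0.539, 0.544 and 0.927 FPKM in NIH-3T3 SHHN libraries, against 0.442, 0 and 0 FPKM in NIH-3T3 controls. In MLg it had 0.212, 0 and 0.556 FPKM with SHHN, against 1.07, 0.644 and 0.52 FPKM in controls. The log2 change was 0.91 in NIH-3T3 (SE 0.30, adjusted p = 0.034) and -0.76 in MLg (SE 0.30, adjusted p = 0.0882), and the difference was 1.67 (SE 0.42, adjusted p = 0.0197). The NIH-3T3 call was lost without any 1 of the 3 SHHN libraries (adjusted p = 0.0539, 0.0591 and 0.116), without control library 2 or 3 (adjusted p = 0.0927 and 0.124) or with no filter (adjusted p = 0.0586). The difference was lost without NIH-3T3 control library 3 or MLg control library 1 (adjusted p = 0.0526 and 0.0507), and the MLg change was called without NIH-3T3 control library 1 or MLg SHHN library 3 (adjusted p = 0.0499 and 0.0341). No window of Hist4h4 is shared with another member.

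Hist1h4i was the highest H4 gene. It had 2.14, 4.20 and 3.65 FPKM in NIH-3T3 SHHN libraries, against 1.60, 3.82 and 0.629 FPKM in controls, and 1.38, 1.28 and 3.59 FPKM in MLg SHHN libraries, against 0, 2.35 and 0.656 FPKM in controls. The groups overlapped in both lines, and the changes of 0.78 and 1.02 (SE 0.58 each) missed the threshold (adjusted p = 0.339 and 0.246). Hist1h4d had 1.80, 1.05 and 2.47 FPKM in MLg SHHN libraries, against 0, 1.37 and 0.362 FPKM in MLg controls (1.24, SE 0.50, adjusted p = 0.1), and was called without NIH-3T3 control library 2 (adjusted p = 0.039), without MLg control library 2 (adjusted p = 0.0277) or with 6 libraries per fit (adjusted p = 0.0447). In NIH-3T3 Hist1h4d had 0, 0.387 and 0.333 FPKM with SHHN, against 0.292, 1.5 and 0 FPKM in controls (-0.37, adjusted p = 0.63). Hist1h4h had 0, 0 and 0.93 FPKM in NIH-3T3 SHHN libraries, against 0, 3.41 and 0.947 FPKM in NIH-3T3 controls. For MLg the values were 0.524, 0 and 0.374 FPKM with SHHN, against 0.344, 0 and 0.339 FPKM in controls (log2 change 0.11, SE 0.60, adjusted p = 0.928). Its groups overlapped in both lines. It changed by -0.99 in NIH-3T3 (SE 0.60, adjusted p = 0.235) and was called lower without NIH-3T3 control library 1 (-1.74, adjusted p = 0.0206), which leaves the library with high Rmrp as 1 of 2 controls.

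Without ligand, 1 of the 30 tested members was higher and 6 were lower in NIH-3T3 controls than in MLg controls. Of all tested genes, 24.4% were higher and 25.7% lower (50.1% in all), so members were called less often than tested genes in general. In this comparison 7 of the 30 tested members were at 0 in a whole group. The part of low values in the smaller share of calls was not tested. The count higher was 3 without NIH-3T3 control library 1 (with Hist1h4h and Hist2h4) and 2 without NIH-3T3 SHHN library 1 (with Hist2h4) or MLg control library 2 (with Hist1h4i). Hist2h2be was the higher one (log2 difference 0.62, SE 0.18, adjusted p = 0.01). Hist1h2ai (-1.69, adjusted p = 1.51e-05), Hist1h2bc (-1.72, adjusted p = 0.00147), Hist2h2aa2 (-1.09, adjusted p = 9.01e-04), Hist1h1c (-1.19, adjusted p = 0.0206) and Hist4h4 (-0.99, adjusted p = 0.0142) were lower in NIH-3T3. Hist1h3h, listed at 0 in NIH-3T3 controls, was the other lower member (adjusted p = 0.00114). For all 6 members called lower, every NIH-3T3 control lay below every MLg control. Hist2h2aa2 missed the filter without MLg SHHN library 2 or MLg control library 1 or 3. The Hist1h1c call was lost without NIH-3T3 control library 1 or 3 or MLg control library 2 or 3 (adjusted p = 0.068, 0.0631, 0.0678 and 0.0502), and that of Hist4h4 without NIH-3T3 control library 3 or MLg control library 1 (adjusted p = 0.0603 and 0.0639). This comparison shares its control libraries with the SHHN comparisons, so the 2 are not independent. Over all 68 members, NIH-3T3 controls lay wholly above MLg controls for 1 member and wholly below for 8. The counts were the same, 1 and 8, among the 30 tested members, where 25.2% and 27% of tested genes did. The like shares over all genes of the matrix are not given here, so the counts over the 68 have no background.

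Low values kept 38 members out of the tests. Of these, 27 were above 0 in at least 1 library, and the highest single value was 1.48 FPKM (Hist1h4j, MLg SHHN library 1). Hist1h3i was read in all 3 MLg SHHN libraries (1.22, 0.77 and 0.203 FPKM) and was listed at 0 in the other 9. Hist1h1d was read in all 3 NIH-3T3 SHHN libraries (0.277, 0.45 and 0.5 FPKM) and was at 0 in NIH-3T3 controls. Hist1h1d and Hist1h3i were chosen after their values were seen. The 11 members at 0 everywhere include the testis genes Hist1h2aa and Hist1h2ba and the near-identical copies Hist1h2ao and Hist1h2ap, of whose windows 93.5% and 93.1% occur in another member.

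Members also share promoter features that the choice by symbol did not use. RefSeq promoters (GRCm38.p6) were found for 62 of the 68 members, and the 250 bases before the RefSeq start were searched on both strands for 4 motifs. TATAA, the core of a TATA box, was found in 66.1% of them and in 22.8% of all 32851 promoters. CCAAT, a box of many S-phase genes, was found in 82.3% against 33.8%, in every H1, H2A and H2B promoter but in 25% of H4 promoters. The octamer ATTTGCAT, bound by Pou2f1 and known from H2B promoters, was found in 22.6% against 1.6%, namely in 7 of 18 H2A and 7 of 16 H2B promoters and in no H1, H3 or H4 promoter. AAACACA, known from H1 promoters, was found in 14.5% against 6.25%, and in 5 of 6 H1 promoters. No 2 matches overlap in the printed promoters.

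The promoters of the most abundant member (Hist3h2a) and those for 3 of the 5 members whose SHHN effects differed between lines are shown, each 5′ to 3′ on the strand of the named gene, with matches to the 4 motifs in either direction in capitals.
Hist3h2a: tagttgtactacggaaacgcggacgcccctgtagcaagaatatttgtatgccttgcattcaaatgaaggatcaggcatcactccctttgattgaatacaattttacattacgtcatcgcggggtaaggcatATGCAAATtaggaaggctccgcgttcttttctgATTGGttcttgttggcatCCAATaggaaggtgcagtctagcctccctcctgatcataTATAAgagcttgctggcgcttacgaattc
Hist1h1c: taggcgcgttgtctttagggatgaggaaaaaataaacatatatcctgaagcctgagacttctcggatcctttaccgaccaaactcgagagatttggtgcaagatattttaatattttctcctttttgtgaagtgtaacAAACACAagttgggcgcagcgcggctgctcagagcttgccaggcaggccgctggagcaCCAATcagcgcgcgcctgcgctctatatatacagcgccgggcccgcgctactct
Hist1h2ac: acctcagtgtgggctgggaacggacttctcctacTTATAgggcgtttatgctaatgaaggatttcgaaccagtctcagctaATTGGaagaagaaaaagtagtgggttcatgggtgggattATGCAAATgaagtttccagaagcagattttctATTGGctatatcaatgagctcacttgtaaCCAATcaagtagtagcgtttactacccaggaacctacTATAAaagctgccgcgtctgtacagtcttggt
Hist1h2bk: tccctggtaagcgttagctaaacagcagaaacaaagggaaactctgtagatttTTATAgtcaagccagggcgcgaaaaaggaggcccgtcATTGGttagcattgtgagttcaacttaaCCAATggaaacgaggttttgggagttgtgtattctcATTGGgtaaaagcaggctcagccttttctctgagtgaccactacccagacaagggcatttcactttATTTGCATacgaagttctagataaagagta
These windows are chr11:58954435-58954684 (plus strand), chr13:23738557-23738806 (plus), chr13:23683960-23684209 (minus) and chr13:22035571-22035820 (plus). The Hist1h2ac window is shown for Hist1h2bc too, because it covers most of the stretch between these 2 genes, which point away from each other.

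Such head-to-head pairs are a feature of H2A and H2B genes, and 13 pairs of members with starts at most 500 bases apart were found. All 13 join an H2A and an H2B gene. The paired genes could differ widely in level: Hist1h2bc had a mean of 5.76 FPKM and Hist1h2ac, across a gap of 250 bases (chr13:23683949-23684198), 0.0614 FPKM. Hist3h2a had 35.6 FPKM, and the pseudogene Hist3h2bb-ps, across 172 bases (chr11:58954513-58954684), 0.05 FPKM. Nearer in level were Hist2h2ac and Hist2h2be, at 1.5 and 0.982 FPKM across 238 bases, and Hist1h2ae and Hist1h2bg, at 1.21 and 0.445 FPKM across 175 bases.

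Levels were also set against the gene models. The 18 members with over 300 annotated bases after the stem-loop had mean levels of 0 to 35.6 FPKM, and 4 of them had a mean of at least 1 FPKM (Hist3h2a, Hist1h1c, Hist1h4i and Hist2h4). The 26 with a stem-loop and a shorter end had means of 0 to 1.5 FPKM, and 2 of them had at least 1 FPKM. Their medians were 0.235 and 0.202 FPKM, so most members of either kind were low. Across the 68 members the rank correlation of transcript length with mean level was 0.079 (Spearman, genes are not independent replicates).

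Other genes of histone supply were given from fixed lists, whose counts stand beside the shares of all tested genes that rose (16.6% in NIH-3T3 and 12.8% in MLg) and fell (14.8% and 10%). Among 11 variant histone genes, 6 rose in NIH-3T3 and 4 in MLg, and none fell, with median log2 changes of 0.52 and 0.38. Cenpa, the H3 variant of centromeres, rose by 2.31 in NIH-3T3 (SE 0.19, adjusted p = 7.14e-07) and by 1.58 in MLg (SE 0.19, adjusted p = 3.32e-05). H2afz, the gene of H2A.Z, rose by 1.05 and 1.11, and H2afx, whose protein marks DNA breaks, by 1.34 in NIH-3T3. In MLg the change of H2afx was 0.65 (adjusted p = 0.0552). Of 17 tested genes for transcription and processing of histone mRNA, 4 rose and 1 fell in NIH-3T3, and 7 rose in MLg, with median log2 changes of 0.15 and 0.26.

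Slbp, which binds the stem-loops shown above, had 38.1, 30.8 and 35.4 FPKM in NIH-3T3 SHHN libraries, against 9.92, 14.4 and 15.1 FPKM in NIH-3T3 controls. MLg cells with SHHN had 35.3, 40.3 and 48.3 FPKM of it, against 12.9, 15.8 and 13.9 FPKM in MLg controls. It rose by 1.39 in NIH-3T3 (SE 0.16, adjusted p = 1.99e-05) and 1.5 in MLg (SE 0.16, adjusted p = 1.36e-05). E2f1, a transcription factor of the G1-to-S transition, rose by 1.47 and 1.10, and Eri1, an exonuclease that trims histone mRNA ends, by 0.51 and 1.16. Ncbp2, a cap-binding protein, fell by 0.35 in NIH-3T3.

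Of 20 histone chaperones and importers, 8 rose and 2 fell (Npm1 by 0.81 and Ubn1 by 0.85) in NIH-3T3, and 10 rose in MLg, with median log2 changes of 0.25 and 0.36. Asf1b, which hands H3 and H4 to CAF-1, rose by 3.03 in NIH-3T3 (SE 0.19, adjusted p = 5.39e-08) and 2.09 in MLg (SE 0.19, adjusted p = 2.96e-06). The CAF-1 subunit gene Chaf1a rose by 2.25 and 1.97. All 16 DNA replication genes of a fixed list (such as Mcm5, Mcm6 and Rrm2) rose in both lines, with median log2 changes of 1.82 in NIH-3T3 and 1.91 in MLg. Their summed level was 653 to 730 FPKM in NIH-3T3 SHHN libraries and 173 to 189 FPKM in NIH-3T3 controls, and 988 to 1092 FPKM in MLg SHHN libraries and 229 to 294 FPKM in MLg controls. In bulk RNA, more cells making a transcript and more transcript per cell cannot be told apart.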

How the data were processed

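RNA-seq libraries of 12 samples were used. The authors deposited 1 table of FPKM per gene; per the submitters' processing notes, bcl2fastq, TopHat2 2.0.12 and Cufflinks 2.2.1 were used with mm10. The annotation, library selection and strandedness are not given in the sources used here. FPKM are not counts. Between 16.5% and 28.5% of low values lay within 0.1 of a whole multiple of a library's step, where arbitrary values give 20%, so reads could not be recovered and depth is unknown. One entry without values was left out.

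The 12379 genes reaching 0.5 FPKM in 3 or more libraries were fitted as log2(FPKM + 0.5) with limma 3.58.1 (R 4.3.3; 4 group means, variance trend, 8 residual degrees of freedom), tested on simulated data. P-values are two-sided and adjusted over all tested genes (Benjamini-Hochberg). Fold changes on this scale understate changes of low genes. Per-library values were given for the 4 highest tested members of each type, the 4 with the smallest p in either SHHN comparison, those past the threshold between lines and the 6 with the smallest p between controls; other called members were named after their values were seen. From each list the 4 genes with the smallest p per comparison could be named; Npm1 and Ubn1 were named because they went against their list. Members and lists were chosen with earlier results of these data known.

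Same-numbered MLg libraries correlated across genes, after removal of group means, at 0.13, 0.16 and 0.24. The values were -0.0007, -0.10 and 0.03 in NIH-3T3, and -0.07, 0.45 and 0.39 between the 2 control groups. Since 0.45 and 0.39 between different lines exceed the MLg values, these correlations do not settle whether MLg libraries were paired. The main fit takes all libraries as unpaired, and the replicate block is an alternative. The control comparison is given from the fit without the block. Stem-loops and lengths came from GENCODE M21, promoters from RefSeq. Alternatives were pseudocounts, filters, scalings, the replicate block, robust variances, 6 libraries per fit and leaving out each library.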

Additional observations from a re-analysis of the deposited data

Results flagged for a closer look

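The SHHN effect differed between NIH-3T3 and MLg for 5 members, by the test of the difference itself (NIH-3T3 minus MLg, log2). The differences were 3.22 for Hist1h2bc, 2.41 for Hist1h1c, 1.67 for Hist4h4, 0.96 for Hist1h2ai and -1.48 for Hist1h2bk. The adjusted p over 12379 genes was 0.00113, 0.0108, 0.0197, 0.0486 and 0.00352. Hist1h2bk was tested only because its 3 MLg SHHN libraries, where it is high, passed the filter; with no filter its adjusted p was 0.00425 and that of Hist1h2ai 0.0733. For Hist1h2bc all 3 SHHN libraries lay above all controls in NIH-3T3 and below them in MLg.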

How the results depend on the processing

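In all, 31 calls of single members were refitted under every alternative that kept the gene, which gave 605 values: 548 kept their side of the threshold, 57 missed it and none changed sign. The sign was fixed in advance for part of these values. The replicate block and robust variances leave the fold change as it was. So does leaving out a library that is in neither of the compared groups. The count of members raised by SHHN in NIH-3T3 (10) became 5 with a filter of 1 FPKM and 6 with 6 libraries per fit, and lay between 7 and 11 when 1 library was left out; the count lowered lay between 0 and 1. In MLg the count raised (9) became 4 with a filter of 1 FPKM and lay between 4 (without MLg SHHN library 3) and 10. The count lowered in MLg (0) became 1 with quantile normalization, with median-ratio scaling and with 6 libraries per fit, 2 with the replicate block, and lay between 0 and 2 when 1 library was left out. The count with a higher effect in NIH-3T3 (4) lay between 2 (without NIH-3T3 control library 3) and 4; the count with a lower effect (1) was 2 with no filter and lay between 0 and 1. Between controls, the count higher in NIH-3T3 (1) was 2 with a pseudocount of 0.1 and lay between 1 and 3, and the count lower (6) was 3 with a filter of 1 FPKM and lay between 4 and 6. Fewer members pass a filter of 1 FPKM, and the cause of the other shifts was not tested. Shares of all genes called under each alternative are not given here, so these counts show only how far the calls of members moved. With the replicate block, 10 members rose in NIH-3T3 and 6 had a higher and 1 a lower effect there; it called Hist1h2bg in NIH-3T3 (adjusted p = 0.00567) and lost Hist4h4 (adjusted p = 0.0528).

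Members detected per library averaged 36.7, 18.3, 42 and 30.3 above 0 FPKM in NIH-3T3 SHHN, NIH-3T3 control, MLg SHHN and MLg control libraries, 21, 11, 26.3 and 12.3 at 0.5 FPKM, and 11, 7.67, 15.3 and 7.33 at 1 FPKM. Shares of all genes at 0.5 and 1 FPKM are not given here. The log2 ratio of summed FPKM in MLg, SHHN over control, was 0.048 and became 1.06 without the highest member of each type; it lay between -0.039 and 0.16 when 1 library was left out. In NIH-3T3 it was 0.76, between 0.55 and 1.03 when 1 library was left out. Without the highest members it was 0.94 there, between 0.66 and 1.71 (without NIH-3T3 control library 2), and in MLg between 0.93 and 1.16. Leaving libraries out of sums was added after seeing the data. No read depth is known, so no limit of detection can be set for members listed at 0.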

Other observations

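Across the 12 libraries, the genes outside the clusters whose log2(FPKM + 0.5) followed the summed level of the members most closely were Tspan4 (Pearson r = 0.93), Selm (0.91), Ankra2 (0.9), Cby1 (0.88) and Tor1a (0.87). They were picked as the highest of all tested genes, so these values are a description with no test, and the libraries share their line and treatment groups. None of them is in the lists of DNA replication or histone genes used above. Hist3h2a alone made up on average between 39.2% (MLg SHHN) and 68% (NIH-3T3 control) of that summed level, so the sum follows this gene in large part. Genes that follow the other members were not searched for, so the list does not show whether those members follow the replication genes.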
